A study of Arabidopsis thaliana with 12 samples.

Results

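The 35 genes described here encode enzymes of general phenylpropanoid, monolignol, flavonoid and anthocyanin synthesis in Arabidopsis thaliana and some of the transcription factors that regulate them. They were picked by locus from known pathway genes, by a rule that uses no measured value, and all 35 were present among the 33607 genes of both deposited tables. By branch they are 9 general phenylpropanoid genes, 9 monolignol genes, 7 flavonoid and flavonol genes, 4 anthocyanin enzymes and 6 regulators. Wild-type Col-0 seedlings grew in vitro for 10 days on full ES medium with 1.5% sucrose, 25 to a plate, with 50 µmol per square metre and second of uninterrupted light. They then spent 72 h either on full ES medium (control) or on ES medium from which Fe was omitted and to which 100 µM FerroZine, a chelator of ferrous iron, was added (Fe-deficient). PolyA RNA of whole rosettes and of roots was sequenced in 12 libraries, which makes 4 groups of 3: rosettes and roots, each as controls and Fe-deficient. The sucrose, the light and the genotype were common to all 4 groups, and the Fe-deficient groups differed from their controls by both the omission of iron and the added chelator. The labels do not say whether the 3 libraries of a group came from separate cultures, so the p-values measure the spread between these libraries, which may be technical.

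Phenylpropanoid synthesis starts from phenylalanine, which phenylalanine ammonia-lyase (PAL), cinnamate 4-hydroxylase (C4H) and 4-coumarate:CoA ligase (4CL) convert to p-coumaroyl-CoA. Hydroxycinnamoyl transferase (HCT), coumaroyl shikimate 3'-hydroxylase (C3'H), caffeoyl shikimate esterase (CSE) and caffeoyl-CoA O-methyltransferase (CCoAOMT1) lead on to feruloyl-CoA, which cinnamoyl-CoA reductase (CCR) draws towards lignin monomers and feruloyl-CoA 6'-hydroxylase (F6'H1) draws towards the coumarins that roots secrete to mobilise iron. Chalcone synthase (CHS) takes p-coumaroyl-CoA into flavonols and anthocyanins instead.

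The promoters of lignin enzymes are known for AC elements, short sequences bound by MYB transcription factors, and those of flavonoid enzymes for G-boxes bound by bHLH and bZIP factors. The 250 bases before the annotated gene start were read from the reference genome (TAIR10.1, RefSeq) and searched on both strands for ACCTACC (AC-I), ACCAACC (AC-II), ACCTAAC (AC-III) and CACGTG (G-box). None of these motifs overlaps another in the windows printed here. At least 1 AC element was present in 9 of the 35 windows, against 6.12% of the windows of 27438 genes: 5 of 9 monolignol genes (HCT, C3'H, CCoAOMT1, CCR1 and CAD5), 2 of 9 general phenylpropanoid genes (4CL2 and 4CL3), the anthocyanin glucosyltransferase gene UGT75C1 and the regulator TT8. The G-box was present in 7 of the 35 windows, against 6.49% of all windows. A match is a description of the letters in the window and not evidence of a binding site, and the lack of a match says only that these letters are not in this window. The windows below are printed 5′ to 3′ on the strand of the gene, with AC elements in capitals, to show windows with and without an AC element among genes that rose, genes that were not called and the gene that fell; the windows were chosen with the values known, and no relation between motif and response was tested. HCT (chr5:19838236-19838485 on the minus strand) and C3'H (chr2:17060653-17060902 on the minus strand) rose in Fe-deficient roots and hold AC-II. 4CL2 (chr3:7457405-7457654 on the minus strand), with the rise next to the largest, holds AC-II at 2 places. CCoAOMT1 (chr4:16310159-16310408 on the plus strand) holds AC-I and CAD5 (chr4:16388941-16389190 on the minus strand) holds AC-II, and neither was called changed in roots. PAL2 (chr3:19747115-19747364 on the minus strand), with the largest rise of the 35, and F5H (chr4:17139778-17140027 on the minus strand), with the largest fall, hold none of the 4 motifs in this window.
HCT: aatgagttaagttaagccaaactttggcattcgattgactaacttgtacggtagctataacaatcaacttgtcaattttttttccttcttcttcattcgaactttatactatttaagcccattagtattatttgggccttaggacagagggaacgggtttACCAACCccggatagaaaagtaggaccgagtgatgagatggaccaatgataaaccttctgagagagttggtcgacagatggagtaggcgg
C3'H: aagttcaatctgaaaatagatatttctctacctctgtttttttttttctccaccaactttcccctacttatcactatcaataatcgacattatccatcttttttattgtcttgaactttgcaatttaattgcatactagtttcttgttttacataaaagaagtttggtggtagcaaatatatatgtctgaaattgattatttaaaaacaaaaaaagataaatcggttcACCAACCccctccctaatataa
4CL2: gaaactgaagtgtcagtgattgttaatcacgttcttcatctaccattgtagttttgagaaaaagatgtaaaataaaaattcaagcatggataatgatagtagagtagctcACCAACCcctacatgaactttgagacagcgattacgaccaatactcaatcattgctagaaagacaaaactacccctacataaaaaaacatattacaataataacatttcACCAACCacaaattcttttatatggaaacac
CCoAOMT1: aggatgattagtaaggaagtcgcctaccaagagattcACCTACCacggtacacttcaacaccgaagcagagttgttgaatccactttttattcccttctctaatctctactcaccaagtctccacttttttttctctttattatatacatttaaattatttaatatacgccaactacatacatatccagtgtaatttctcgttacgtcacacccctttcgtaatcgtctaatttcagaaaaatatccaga
CAD5: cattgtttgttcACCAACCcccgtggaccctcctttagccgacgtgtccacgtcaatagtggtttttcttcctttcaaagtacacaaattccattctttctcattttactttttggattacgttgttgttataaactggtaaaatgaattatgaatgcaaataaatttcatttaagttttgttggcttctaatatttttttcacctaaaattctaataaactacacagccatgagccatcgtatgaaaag
PAL2: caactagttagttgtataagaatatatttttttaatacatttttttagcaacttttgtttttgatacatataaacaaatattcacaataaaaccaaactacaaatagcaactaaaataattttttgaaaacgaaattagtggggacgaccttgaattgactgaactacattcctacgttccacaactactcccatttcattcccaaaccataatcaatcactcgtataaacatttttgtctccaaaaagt
F5H: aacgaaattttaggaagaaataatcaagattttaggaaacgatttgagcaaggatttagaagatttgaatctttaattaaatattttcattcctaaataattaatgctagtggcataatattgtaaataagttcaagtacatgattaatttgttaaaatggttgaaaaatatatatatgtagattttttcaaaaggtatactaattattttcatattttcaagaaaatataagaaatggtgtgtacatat

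In roots 5 of the 8 tested genes for the enzymes shared by lignin, flavonoid and coumarin synthesis rose under Fe deficiency, as did 3 of 9 monolignol genes, while none of the 7 genes of the flavonoid branch passed the test and F5H, of the syringyl lignin branch, fell. Of the 35 genes, 25 reached a mean of 1 RPKM over the 6 root libraries and were tested. RPKM is the density of reads over a transcript, corrected for its length and for the size of the library. The test was limma's on log2(RPKM + 0.5), and a gene was called changed at a Benjamini-Hochberg adjusted p under 0.05 over all genes of the organ. The called genes comprised 8 higher and 1 lower, against 3.52% of all 19932 tested root genes called higher, 2.35% called lower and 5.87% in either direction. In rosettes 33 of the 35 were tested. Limma called none higher and none lower, against 0.679% and 1.28% of all 19006 tested rosette genes and 1.96% in either direction. At an unadjusted p under 0.05, limma gave 3 of the 33 genes higher and 2 lower in rosettes, and the authors' deposited table gives none of the 33 a p-value under 0.05. Over all genes, 4253 of 19932 tested in roots and 3077 of 19006 tested in rosettes had an unadjusted p under 0.05 in limma, in either direction. Because whole organs were sampled, fewer cells of a type and less RNA per cell cannot be told apart. Sequencing depth is not given in the files, so no counting interval is attached to any value.

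**Figure D1:**
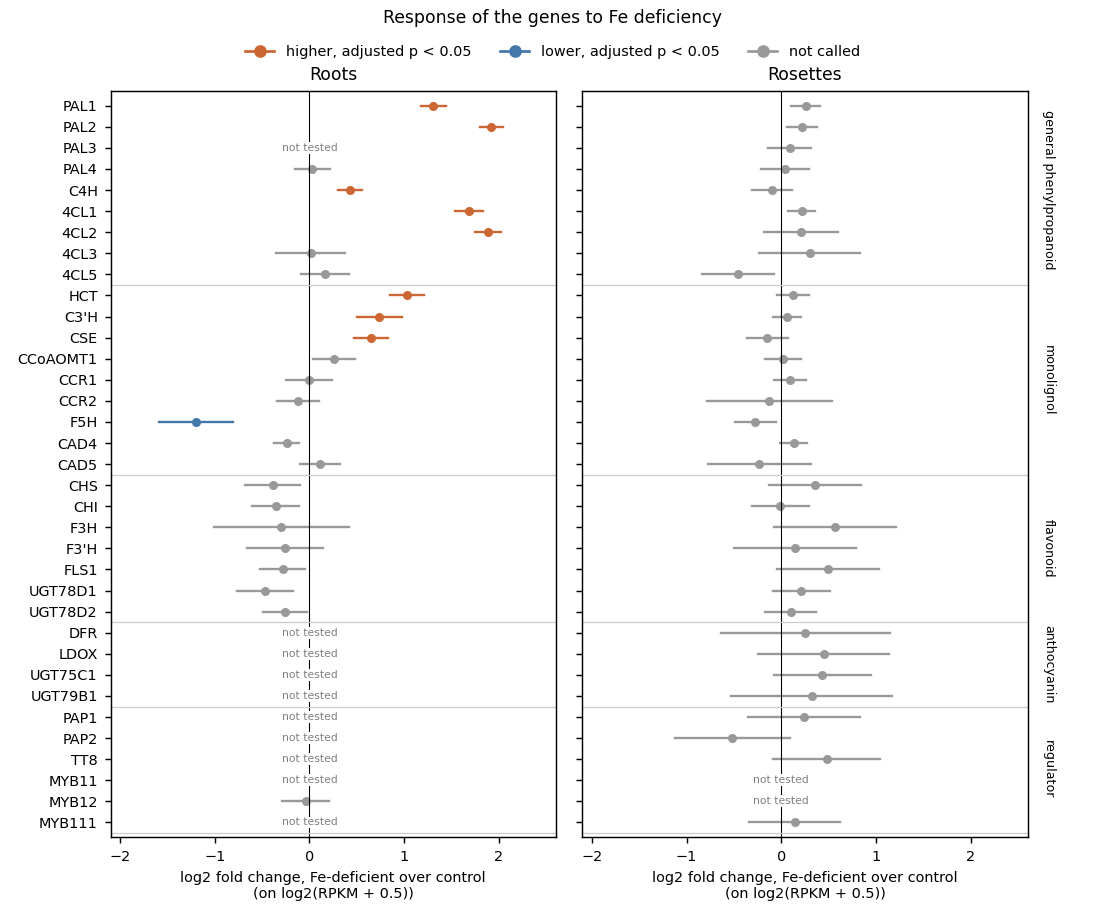
Log2 fold change (Fe-deficient over control, on log2(RPKM + 0.5)) of each of the 35 genes in roots and rosettes, with 95% confidence intervals from limma, grouped by branch. Orange marks genes called higher and blue genes called lower; the 8 higher genes and the lower gene in roots lie in the general phenylpropanoid and monolignol branches, and none is marked in rosettes.

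Among the members tested in roots, the largest rises were those of PAL and 4CL genes, at the general phenylpropanoid steps. PAL2 (AT3G53260) stood at 102.75, 108 and 110.1 RPKM in the controls and 421, 401 and 398 RPKM under Fe deficiency (log2 fold change 1.92, SE 0.051, limma adjusted p = 3.67e-06). PAL1 (AT2G37040) stood at 319.9, 333 and 337 RPKM in the controls and 787, 858 and 805 RPKM under Fe deficiency (log2 fold change 1.31, SE 0.056, limma adjusted p = 2.8e-05). These enzymes deaminate phenylalanine to cinnamate, and for both genes every Fe-deficient library lay above every control. Groups did not overlap, in either direction, in 26.1% of all tested root genes, which bears on each such mention for roots. PAL4 (AT3G10340) ranged from 13.7 to 15.5 RPKM over the 6 root libraries with overlapping groups (log2 fold change 0.03, 95% interval -0.15 to 0.22). PAL3 (AT5G04230) did not exceed 0.31 RPKM in any root library and was not tested there.

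The summed PAL level in roots was 452 ± 12.7 RPKM (SD, n = 3) in the controls and 1239 ± 31.8 RPKM (SD, n = 3) under Fe deficiency, a ratio of 2.74. The make-up of this sum moved towards PAL2, which supplied 23.7% ± 0.196 (SD, n = 3) of it in control roots and 32.9% ± 1.47 (SD, n = 3) in Fe-deficient roots. PAL1 went the other way, from 73.0% ± 0.120 to 65.9% ± 1.49 (SD, n = 3 each). In rosettes PAL1 and PAL2 held near-equal shares, with PAL1 at 47.8% and PAL2 at 43.1% in controls, and PAL3 added 7.199%. PAL1 and PAL2 share 1.09% and 1.11% of their 50-base stretches with each other, so a small part of their reads may be exchanged between them.

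**Figure D2:**
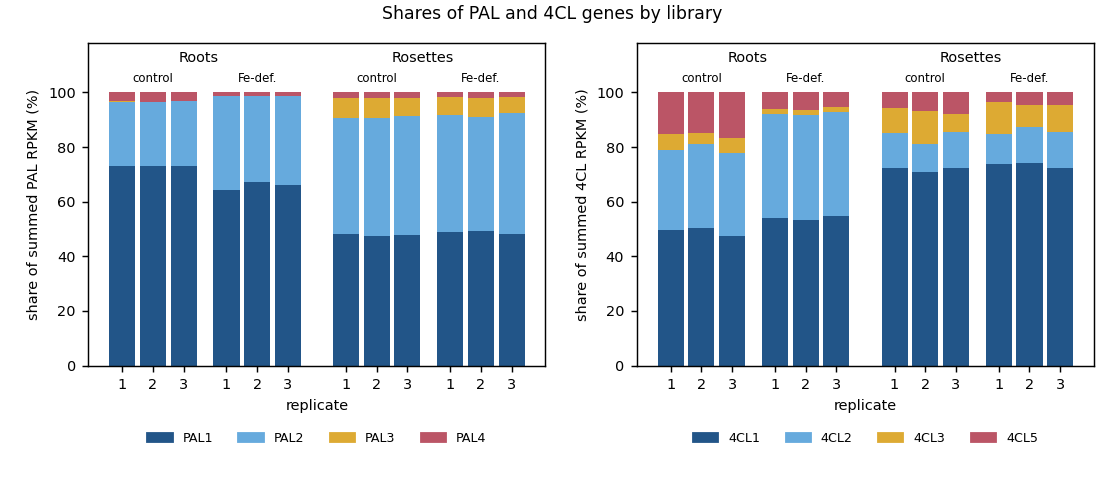
Share (%) of the summed RPKM of the PAL genes (left) and the 4CL genes (right) held by each gene in each of the 12 libraries, by organ and treatment. In all 3 Fe-deficient root libraries PAL2 and 4CL2 hold a larger share than in any control root library, and 4CL5 a smaller one.

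Cinnamate 4-hydroxylase and 4-coumarate:CoA ligase followed the same direction by different amounts. C4H (AT2G30490), a single-copy cytochrome P450 gene, stood at 459, 459 and 487 RPKM in the controls and 644, 614 and 636 RPKM under Fe deficiency (log2 fold change 0.43, SE 0.052, limma adjusted p = 0.00483). Its level in controls was the highest of the general phenylpropanoid genes and its rise was the smallest of the 5 that were called. The value 459.22 RPKM is listed for both control 1 and control 2, a tie of the kind found among highly expressed genes in these tables, which narrows the spread between libraries. 4CL2 (AT3G21240) stood at 52.5, 52.9 and 51.2 RPKM in the controls and 201, 201 and 182 RPKM under Fe deficiency (log2 fold change 1.89, SE 0.057, limma adjusted p = 6.84e-06). 4CL1 (AT1G51680) stood at 88.5, 86.4 and 79.7 RPKM in the controls and 283, 279 and 259 RPKM under Fe deficiency (log2 fold change 1.69, SE 0.062, limma adjusted p = 1.56e-05). Both encode ligases with a known role in lignin synthesis, and their groups did not overlap.

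The other ligase genes did not pass the test in roots. 4CL3 (AT1G65060), which is known for supplying flavonoid synthesis, ranged from 6.58 to 10.0 RPKM (log2 fold change 0.01, 95% interval -0.36 to 0.38). 4CL5 (AT3G21230) ranged from 25.6 to 33.7 RPKM (log2 fold change 0.16, 95% interval -0.09 to 0.42). The summed 4CL level was 173 ± 5.30 RPKM in control roots and 507 ± 29.0 RPKM in Fe-deficient roots (SD, n = 3 each). Within it, the share of 4CL2 went from 30.3% ± 0.720 to 38.4% ± 0.0399 and that of 4CL5 from 15.7% ± 1.03 to 5.99% ± 0.520 (SD, n = 3 each). The overlapping neighbour of 4CL1, AT1G51670, stayed between 0.22 and 0.95 RPKM in roots. Over the branch, 5 of the 8 tested genes were called higher and none lower, with a median log2 fold change of 0.87 beside -0.02 over all tested root genes.

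The next steps, from p-coumaroyl-CoA to caffeate and caffeoyl-CoA, also rose in roots. HCT (AT5G48930), which joins p-coumaroyl-CoA to shikimate, stood at 106, 119 and 107 RPKM in the controls and 239, 232 and 208 RPKM under Fe deficiency (log2 fold change 1.03, SE 0.074, limma adjusted p = 0.000409). C3'H (AT2G40890), the hydroxylase of that ester, stood at 84.95, 85.2 and 81.2 RPKM in the controls and 154, 149 and 119 RPKM under Fe deficiency (log2 fold change 0.74, SE 0.1, limma adjusted p = 0.0078). CSE (AT1G52760), the esterase that releases caffeate, stood at 164, 144 and 152 RPKM in the controls and 239, 259 and 224 RPKM under Fe deficiency (log2 fold change 0.65, SE 0.075, limma adjusted p = 0.00378). For these 3 genes every Fe-deficient library was above every control, where 26.1% of all tested root genes had groups that did not overlap in either direction. The rise became smaller from HCT to CSE in the order of their fold changes, although the 95% intervals of C3'H (0.50 to 0.97) and CSE (0.47 to 0.83) overlap. C3'H overlaps CYSA (AT2G40880), a cystatin gene that was at 9.29 ± 0.801 RPKM in control roots and 7.83 ± 0.635 RPKM in Fe-deficient roots (SD, n = 3) and was not called.

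CCoAOMT1 (AT4G34050), the methyltransferase that makes feruloyl-CoA, had the highest level of the 35 genes in roots. It stood at 783, 949.9 and 995.4 RPKM in the controls and 1086, 1101 and 1063 RPKM under Fe deficiency. The groups did not overlap, but control 1 lay well below the other controls and the difference was not called (log2 fold change 0.26, SE 0.095, limma adjusted p = 0.176). The authors' deposited table gives this gene a log2 fold change of 0.25 in roots with a p-value of 0.00, as rounded there.

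**Figure D3:**
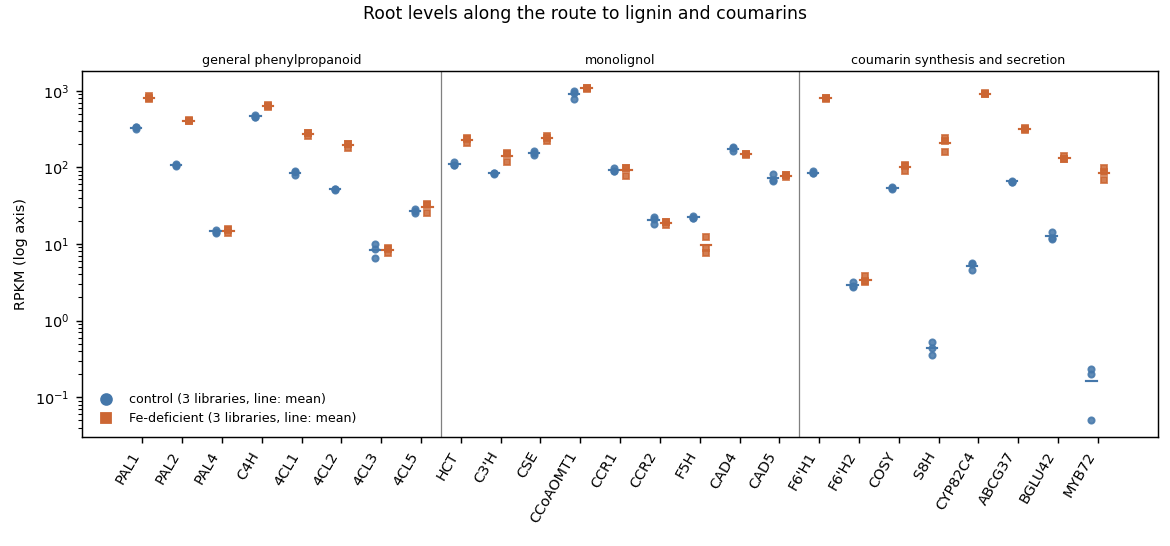
RPKM (log axis) in each root library for the general phenylpropanoid and monolignol genes that were tested in roots, and for the genes of coumarin synthesis and secretion; points are libraries and short lines are group means of 3. PAL1, PAL2, C4H, 4CL1, 4CL2, HCT, C3'H and CSE rise, F5H falls, CCR1 lies between 78.0 and 98.8 RPKM in all 6 libraries, and the coumarin genes other than F6'H2 rise, most of them by more.

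Downstream of feruloyl-CoA no reductase or dehydrogenase gene of the lignin route was called in roots. CCR1 (AT1G15950), the main reductase of developmental lignin, stood at 97.8, 88.4 and 88.5 RPKM in the controls and 98.7, 98.8 and 78.0 RPKM under Fe deficiency with overlapping groups (log2 fold change -0.002, 95% interval -0.25 to 0.24). CCR2 (AT1G80820), known for induction by pathogens, ranged from 17.9 to 22.8 RPKM (log2 fold change -0.12, adjusted p = 0.516). CCR2 overlaps NRAMP1 (AT1G80830), a manganese and iron transporter gene that was called higher, at 67.3 ± 2.41 RPKM in control roots and 92.9 ± 1.18 RPKM in Fe-deficient roots (SD, n = 3). Whether counting used strand is not stated, so reads of the overlapping part cannot be told apart. CAD4 (AT3G19450) and CAD5 (AT4G34230) encode the alcohol dehydrogenases that finish the monolignols. CAD4 stood at 182, 177 and 166 RPKM in the controls and 149, 151 and 143 RPKM under Fe deficiency, with groups that did not overlap and an adjusted p of 0.0528 (log2 fold change -0.24). CAD5 ranged from 65.95 to 81.6 RPKM with overlapping groups (log2 fold change 0.11, adjusted p = 0.52).

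F5H, at the entry to the syringyl branch of lignin, which adds a further methoxyl group, fell in roots. F5H (AT4G36220) encodes ferulate 5-hydroxylase and stood at 23.3, 21.6 and 22.1 RPKM in the controls and 8.87, 12.4 and 7.66 RPKM under Fe deficiency (log2 fold change -1.20, SE 0.16, limma adjusted p = 0.00813). The groups did not overlap, and with no filter on low values the call was lost (adjusted p = 0.069).

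The opposed changes of HCT and F5H show in their ratio of RPKM within a library. HCT over F5H was 4.97 ± 0.479 in control roots and 24.3 ± 4.83 in Fe-deficient roots (SD, n = 3 each). In rosettes this ratio was 1.001 ± 0.130 in controls and 1.32 ± 0.186 under Fe deficiency (SD, n = 3 each). Over the monolignol branch in roots, 3 of 9 genes were called higher and 1 lower, with a median log2 fold change of 0.11. The summed level of the 9 genes was 1639 ± 98.6 RPKM (SD, n = 3) in the controls and 2037 ± 89 RPKM (SD, n = 3) under Fe deficiency.

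Most coumarin genes, which lie downstream of this supply, rose in roots as well. Of 8 genes of coumarin synthesis and secretion, 7 were called higher in roots and none lower, with a median log2 fold change of 3.28. Of all tested root genes, 3.52% were called higher and 2.35% lower. F6'H1 (AT3G13610), which hydroxylates feruloyl-CoA on the way to scopoletin, stood at 83.4, 83.8 and 89.6 RPKM in the controls and 802, 783 and 816 RPKM under Fe deficiency (log2 fold change 3.22, SE 0.051, limma adjusted p = 3.5e-07). Its ratio to CCR1, the competing reductase gene for feruloyl-CoA, was 0.938 ± 0.0800 in control roots and 8.84 ± 1.41 in Fe-deficient roots (SD, n = 3 each). In control roots the transcripts of these competing enzymes were thus at a similar level, and under Fe deficiency every library held more F6'H1 than CCR1. The log2 fold change was 0.90 for the coumarin synthase gene COSY, 2.25 for the exporter gene ABCG37 and 3.34 for the beta-glucosidase gene BGLU42. It was 7.31 for CYP82C4 and 7.78 for S8H, the hydroxylases that make sideretin and fraxetin, and 7.02 for the regulator gene MYB72. S8H and MYB72 stood at or below 0.52 RPKM in every control root library, so their fitted values depend on the pseudocount of 0.5. CYP82C4 shares 8.98% of its 50-base stretches with AT4G31950 and AT4G31970, and MYB72 overlaps AT1G56165, which stayed at or below 0.75 RPKM in roots. In rosettes none of the 5 tested coumarin genes was called by limma, and the authors' deposited table gives none a p-value under 0.05. At an unadjusted p under 0.05 limma gave 2 higher, against 3077 of all 19006 tested rosette genes in either direction. The 2 were CYP82C4 (log2 fold change 2.39, limma adjusted p = 0.113) and F6'H1 (1.31, limma adjusted p = 0.266). COSY, ABCG37 and BGLU42 had log2 fold changes of 0.07, 0.29 and 0.03. S8H and MYB72 were too low to be tested in rosettes. Their means there were 0.1 and 0.107 RPKM in controls and 0.83 and 0.98 RPKM under Fe deficiency. The groups of CYP82C4 did not overlap, as in 10.0% of all tested rosette genes towards higher values. Those of S8H and MYB72 did not overlap either, but this share does not cover them, as they were not tested. Their rosette controls lay at or below 0.13 and 0.22 RPKM. The authors' deposited table marks both as low in rosettes, with p-values of 0.45 and 0.4. In roots F6'H2 (AT1G55290), a paralogue of F6'H1, ranged from 2.77 to 3.77 RPKM and was not called (log2 fold change 0.20, adjusted p = 0.41). In rosettes it was not tested.

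Summed over a branch, the general phenylpropanoid genes held 1093 ± 21.2 RPKM (SD, n = 3) in the controls and 2377 ± 44.5 RPKM (SD, n = 3) under Fe deficiency, a ratio of 2.17. The coumarin genes held 226 ± 4.68 RPKM (SD, n = 3) in the controls and 2552 ± 58.8 RPKM (SD, n = 3) under Fe deficiency. The summed flavonoid and flavonol genes held 459 ± 20.7 RPKM (SD, n = 3) in the controls and 363 ± 46.1 RPKM (SD, n = 3) under Fe deficiency, and the 4 anthocyanin enzymes together did not exceed 1.88 RPKM in any root library. In Fe-deficient roots the summed coumarin transcripts thus reached the level of the general phenylpropanoid genes. The coumarin sum includes the genes ABCG37 (exporter), BGLU42 (beta-glucosidase) and MYB72 (regulator), with means of 315, 132 and 85.1 RPKM in Fe-deficient roots. The general phenylpropanoid sum holds genes of synthesis enzymes only.

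**Figure D4:**
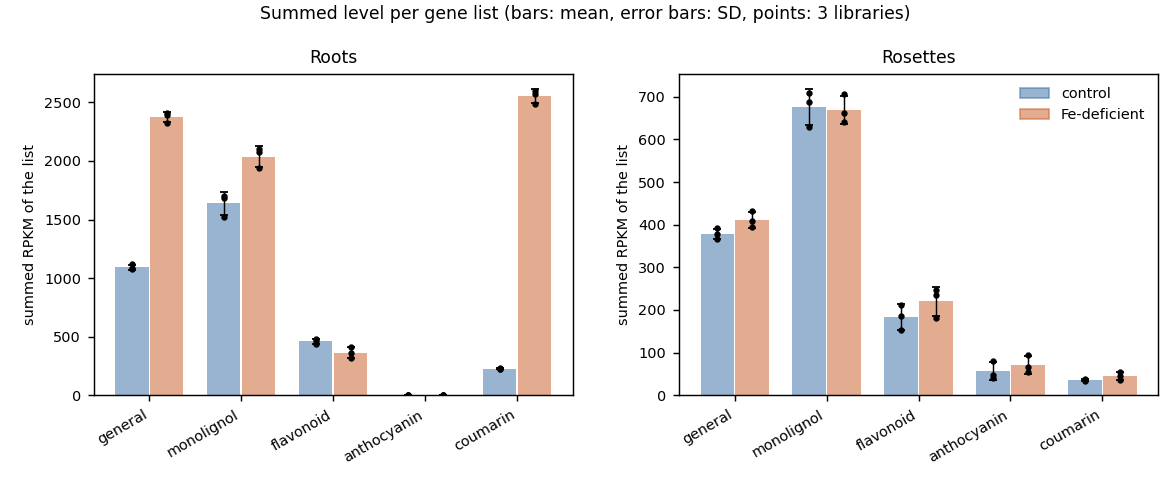
Summed RPKM of the genes of each branch in roots (left) and rosettes (right); bars are means, error bars SD and points the 3 libraries of a group, and the vertical scales of the panels differ. In roots the general phenylpropanoid sum lies at 1075 to 1116 RPKM in controls and 2327 to 2412 RPKM under Fe deficiency, while in rosettes it lies between 366 and 431 RPKM.

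The flavonoid and flavonol genes lay lower in Fe-deficient roots, but none passed the test after adjustment. An unadjusted p under 0.05 in limma was found for 5 of 7, against 4253 of all 19932 tested root genes in either direction. All 7 had a negative log2 fold change, from -0.47 to -0.26 with a median of -0.30, where 54.4% of all tested root genes were negative and their median was -0.02. CHS (AT5G13930), the entry enzyme, stood at 224, 229 and 199 RPKM in the controls and 186, 178 and 138 RPKM under Fe deficiency (log2 fold change -0.39, SE 0.12, limma adjusted p = 0.126). The authors' deposited table gives CHS a p-value of 0.01 in roots. Groups did not overlap for CHS, the chalcone isomerase gene CHI, the flavonol synthase gene FLS1 and the flavonol glycosyltransferase genes UGT78D1 and UGT78D2. Such separation was found in 26.1% of all tested root genes, and in 14.1% towards lower values. FLS1 (AT5G08640) stood at 102, 90.9 and 81.0 RPKM in the controls and 78.4, 78.6 and 67.5 RPKM under Fe deficiency (log2 fold change -0.28, adjusted p = 0.168). CHI (AT3G55120) had a log2 fold change of -0.36 (adjusted p = 0.108), UGT78D1 (AT1G30530) of -0.47 (adjusted p = 0.0821) and UGT78D2 (AT5G17050) of -0.26 (adjusted p = 0.19).

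The hydroxylases of the flavonoid branch were the most variable of its genes in roots. F3H (AT3G51240), flavanone 3-hydroxylase, stood at 41.7, 72.7 and 67.4 RPKM in the controls and 66.4, 32.4 and 50.8 RPKM under Fe deficiency, with overlapping groups and a 95% interval of -1.01 to 0.42 for its log2 fold change of -0.30. It overlaps AT3G51238, which is listed at 37.7, 0.03 and 0.03 RPKM in the controls and 0.03, 29.3 and 0.03 RPKM under Fe deficiency. The lowest F3H library of each group is thus the library in which this neighbour is listed well above 0.03 RPKM, and how reads were divided between them is not stated. F3'H (AT5G07990), flavonoid 3'-hydroxylase, stood at 13.8, 12.9 and 11.6 RPKM in the controls and 13.9, 8.94 and 9.49 RPKM under Fe deficiency (log2 fold change -0.26, adjusted p = 0.443), where Fe-deficient library 1 lay above every control and the other two below every control.

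In rosettes most of the flavonoid and anthocyanin genes had positive log2 fold changes, but none passed the test, and none had an unadjusted p under 0.05 in limma or a p-value under 0.05 in the authors' deposited table. Of the 7 flavonoid and flavonol genes, 6 had a positive log2 fold change, with a median of 0.21 beside 0.00 over all tested rosette genes, and the groups overlapped for all 7. CHS stood at 67.3, 82.2 and 53.0 RPKM in the controls and 91.3, 68.4 and 99.03 RPKM under Fe deficiency (log2 fold change 0.36, SE 0.2, adjusted p = 0.442). F3H had the largest difference of this branch, 0.57 (adjusted p = 0.359), followed by FLS1 with 0.49 (adjusted p = 0.347). The others were UGT78D1 with 0.21, F3'H with 0.14, UGT78D2 with 0.10 and CHI with -0.01. AT3G51238, which overlaps F3H, had a log2 fold change of 0.56 in rosettes, and how reads were divided between the overlapping genes is not stated.

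The anthocyanin enzymes differed as much between libraries of a group as between groups. DFR (AT5G42800), the dihydroflavonol reductase that opens the branch, stood at 16.2, 29.6 and 13.3 RPKM in the controls and 20.6, 16.2 and 32.7 RPKM under Fe deficiency (log2 fold change 0.25, SE 0.36, adjusted p = 0.789). LDOX (AT4G22880), the anthocyanidin synthase, stood at 20.5, 32.8 and 16.7 RPKM in the controls and 29.9, 24.4 and 39.9 RPKM under Fe deficiency (log2 fold change 0.45, adjusted p = 0.501). In both genes control 2 and Fe-deficient library 3 were the highest of their groups. The glycosyltransferase genes showed the same order. UGT75C1 (AT4G14090) stood at 7.42, 10.4 and 6.25 RPKM in the controls and 10.5, 9.08 and 13.1 RPKM under Fe deficiency (log2 fold change 0.43, adjusted p = 0.382). UGT79B1 (AT5G54060) stood at 3.59, 7.04 and 3.59 RPKM in the controls and 5.68, 3.88 and 8.56 RPKM under Fe deficiency (log2 fold change 0.32, adjusted p = 0.709). LDOX shares 3.99% of its 50-base stretches with AT4G22870 and UGT79B1 shares some with AT5G08105, so their values carry that uncertainty. In roots all 4 genes stayed at or below 0.83 RPKM and were not tested.

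**Figure D5:**
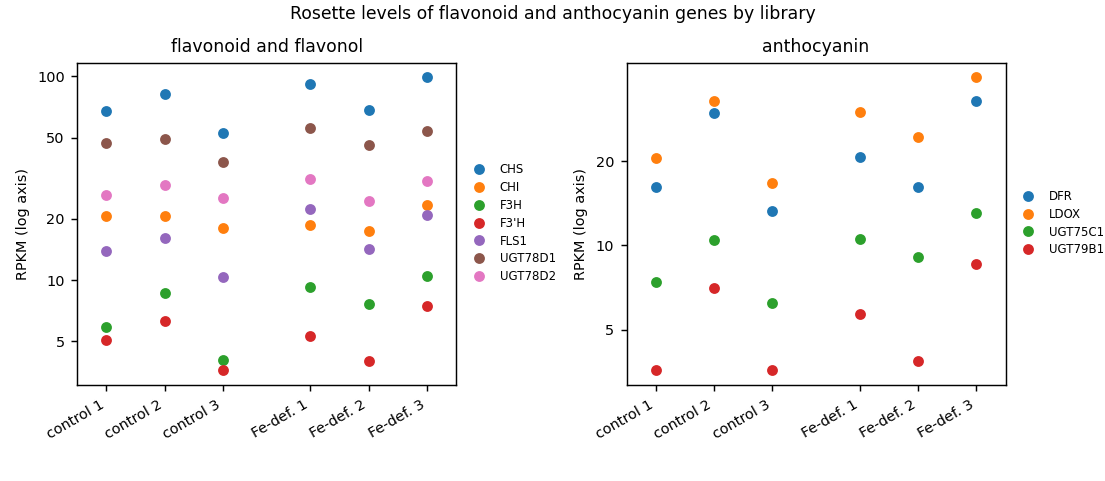
RPKM (log axis) of the 7 flavonoid and flavonol genes (left) and the 4 anthocyanin enzymes (right) in each of the 6 rosette libraries. Control 2 is the highest control and Fe-deficient library 3 the highest Fe-deficient library for all 4 anthocyanin enzymes, and the groups overlap for every gene shown.

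The regulators were expressed in different organs. MYB12 (AT2G47460), an activator of flavonol synthesis, was the only one of the 6 tested in roots and stood at 14.9, 17.8 and 14.2 RPKM in the controls and 16.2, 14.1 and 15.1 RPKM under Fe deficiency (log2 fold change -0.04, adjusted p = 0.869). In rosettes it was below the 1 RPKM filter, at 0.31, 0.3 and 0.25 RPKM in the controls and 1.04, 0.81 and 0.68 RPKM under Fe deficiency. Every Fe-deficient rosette library exceeded every control, and with no filter its log2 fold change was 0.76 with a limma adjusted p of 0.0969. Its relative MYB111 (AT5G49330) showed the reverse distribution, at most 0.29 RPKM in roots and 4.81 to 8.27 RPKM in rosettes (log2 fold change 0.14, adjusted p = 0.781). MYB11 (AT3G62610) did not exceed 0.79 RPKM in either organ.

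The anthocyanin regulators were at or below 0.36 RPKM in roots. PAP1 (AT1G56650), a MYB activator, stood at 4.8, 4.6 and 5.28 RPKM in the controls and 5.72, 4.07 and 8.51 RPKM under Fe deficiency in rosettes (log2 fold change 0.24, adjusted p = 0.687). PAP2 (AT1G66390) stood at 3.15, 4.64 and 2.72 RPKM in the controls and 2.72, 1.55 and 2.62 RPKM under Fe deficiency (log2 fold change -0.52, adjusted p = 0.376) and was the only one of the 4 tested regulators with a negative value. PAP2 shares 4.44% of its 50-base stretches with MYB114 (AT1G66380), and is listed at 0.06 RPKM in all 6 root libraries. TT8 (AT4G09820), the bHLH partner of these MYBs, stood at 1.4, 2.2 and 1.1 RPKM in the controls and 2.06, 2.03 and 2.92 RPKM under Fe deficiency (log2 fold change 0.48, adjusted p = 0.38). The groups of all 3 genes overlapped.

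In rosettes limma called none of the general phenylpropanoid and monolignol genes described here, and 5 had groups that did not overlap. F5H lay lower, at 83.8, 74.9 and 90.0 RPKM in the controls and 62.6, 70.3 and 72.6 RPKM under Fe deficiency (log2 fold change -0.27, adjusted p = 0.212). PAL1 stood at 85.6, 81.2 and 76.4 RPKM in the controls and 102, 91.5 and 97.3 RPKM under Fe deficiency (log2 fold change 0.26, adjusted p = 0.124). PAL2 and 4CL1 likewise had non-overlapping higher groups, with log2 fold changes of 0.22 and 0.21 and adjusted p-values of 0.192 and 0.165. 4CL5 had non-overlapping lower groups (-0.46, adjusted p = 0.238). Separation of this kind was found in 10.0% of all tested rosette genes towards higher values and in 11.4% towards lower values, 21.4% together. The other genes of these branches had log2 fold changes between -0.23 (CAD5) and 0.30 (4CL3), and their groups overlapped. The summed general phenylpropanoid level was 378 ± 12.7 RPKM (SD, n = 3) in the controls and 411 ± 18.7 RPKM (SD, n = 3) under Fe deficiency.

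The difference between organs was itself tested for the 24 genes measured in both. The response in rosettes minus that in roots differed from 0 for 10 of them, 8 lower and 2 higher, against 3.48% of all 17680 genes tested in both organs (2.09% lower and 1.39% higher). The widest gaps were at PAL2 (-1.70, adjusted p = 2.4e-07), 4CL2 (-1.68, adjusted p = 0.00146), 4CL1 (-1.47, adjusted p = 4.07e-07) and PAL1 (-1.05, adjusted p = 7.58e-06). HCT, CSE, C3'H and C4H followed with -0.91, -0.80, -0.68 and -0.53. F5H (0.93, adjusted p = 0.0207) and CAD4 (0.37, adjusted p = 0.0208) differed in the other direction. None of the 7 flavonoid and flavonol genes passed this test. UGT78D1 came nearest, with 0.68 and an adjusted p of 0.0516, and passed it in 6 of 22 alternatives (adjusted p from 0.0361 to 0.0483 in those 6, and up to 0.144 over the 22). Without root control 2 both F5H (adjusted p = 0.0841) and CAD4 (0.0584) lost the call.

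In the supply of phenylalanine, 5 of 13 genes of the shikimate and phenylalanine route were called higher in roots and none lower. Of all tested root genes, 3.52% were called higher and 2.35% lower. The other 8 were not called, with log2 fold changes from -0.07 to 0.17, and the median over the list was 0.125. In rosettes limma called none of the 13, and 2 were lower at an unadjusted p under 0.05. Of all 19006 tested rosette genes, 3077 had such a p-value, in either direction. The 5 called in roots were the genes of the first enzyme, DHS1 (0.45, adjusted p = 0.00401) and DHS3 (0.63, adjusted p = 0.00206), of EPSP synthase, EPSPS (0.53, adjusted p = 0.0133), of chorismate mutase, CM1 (0.66, adjusted p = 0.00139), and of arogenate dehydratase, ADT5 (0.64, adjusted p = 0.00352). DHS3 (AT1G22410) held the highest level of these, at 234, 265 and 266 RPKM in the controls and 396, 391 and 394 RPKM under Fe deficiency. EPSPS lost its call in 4 of the alternative analyses and shares 4.17% of its 50-base stretches with AT1G48860 and AT2G42240.

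Of 4 tested genes for Kelch F-box proteins, which mark PAL or CHS for degradation, 2 were called higher in roots. The share called higher over all tested root genes was 3.52%. KFB01 (AT1G15670) stood at 26.8, 20.6 and 20.7 RPKM in the controls and 47.2, 54.1 and 46.1 RPKM under Fe deficiency (log2 fold change 1.103, SE 0.12, limma adjusted p = 0.00272). KFB20 (AT1G80440) stood at 19.3, 19.99 and 27.3 RPKM in the controls and 35.7, 47.5 and 40.3 RPKM under Fe deficiency (log2 fold change 0.89, SE 0.16, limma adjusted p = 0.0242). KFB50 (AT3G59940) lay lower with groups that did not overlap, at 16.2, 10.9 and 11.8 RPKM in the controls and 7.32, 9.43 and 9.62 RPKM under Fe deficiency, and was not called (log2 fold change -0.53, SE 0.17, limma adjusted p = 0.137). KFB-CHS had a log2 fold change of -0.15 (adjusted p = 0.508) with overlapping groups. In rosettes limma called none of the 4 (1 lower at an unadjusted p under 0.05, against 3077 of all 19006 tested rosette genes in either direction). The KFB20 call was lost in 5 alternatives, in 4 of which a library was left out (adjusted p from 0.0637 to 0.126 over the 5).

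Among genes that act on the products, UGT72E1 (AT3G50740), a glucosyltransferase gene of the UGT72E family, stood at 21.1, 20.7 and 20.1 RPKM in the controls and 185, 187 and 156 RPKM under Fe deficiency (log2 fold change 3.06, SE 0.08, limma adjusted p = 3.47e-06). CCoAOMT7 (AT4G26220), a relative of CCoAOMT1, fell in roots, at 49.4, 51.3 and 48.2 RPKM in the controls and 34.7, 35.1 and 34.3 RPKM under Fe deficiency (log2 fold change -0.51, SE 0.051, limma adjusted p = 0.00204). In this list of monolignol glucosides and sinapate esters, these were the 2 genes called of 7 tested in roots. Over all tested genes, 5.87% were called in roots and 1.96% in rosettes, in either direction. In rosettes 1 of 6 was called, the hydroxycinnamaldehyde dehydrogenase gene REF1, at 88.8, 79.1 and 81.0 RPKM in the controls and 103.61, 114 and 113 RPKM under Fe deficiency (log2 fold change 0.41, adjusted p = 0.0368), and its call was lost in 8 alternatives. None of 8 laccase and peroxidase genes of lignin polymerisation was called by limma in roots (median log2 fold change 0.02, 2 higher at an unadjusted p under 0.05), and none of 5 tested in rosettes (0 at an unadjusted p under 0.05). Of all 19932 tested root genes, 4253 had such a p-value, in either direction. Of 8 MYB genes of lignin and phenylpropanoid control, the repressor gene MYB4 (AT4G38620) was the only one called in roots, at 37.6, 32.1 and 32.2 RPKM in the controls and 59.5, 60.3 and 49.4 RPKM under Fe deficiency (log2 fold change 0.72, adjusted p = 0.00925), a call lost without control 2 (0.0574) and with no filter (0.0673). In rosettes MYB4 was not called (log2 fold change 0.335, limma adjusted p = 0.0542), but was called in 3 of 16 alternatives. Its rosette groups did not overlap, as in 10.0% of all tested rosette genes towards higher values. The organ difference of MYB4 was not called (-0.386, adjusted p = 0.118).

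Libraries of a group correlated with r from 0.979 to 0.986 in roots and from 0.977 to 0.988 in rosettes over the tested genes. The response to iron was present in both organs: the uptake genes IRT1 and FRO2 and the regulator BHLH38 were called higher and the ferritin gene FER1 lower in each. RNA integrity numbers were 9.8 to 10 for roots and 8.3 to 8.7 for leaves. The summed level of 5 xylem secondary wall genes was 175 to 190.2 RPKM in control and 176 to 188 RPKM in Fe-deficient roots, with 0 of 5 called. The 3 endodermis markers summed to 105 to 125 RPKM and 107 to 123 RPKM, and 0 of 3 were called, nor were any of 4 root hair and root markers. Of these 4, PYK10 is listed at 2926.32 RPKM in every root library, the highest value of each. Its value is thus tied between libraries and it could not be called. None of these markers had an unadjusted p under 0.05 in limma. Of 4 green tissue markers, RBCS1A and RCA were called lower in roots (-0.41 and -0.82), and the sum of the 4 went from 70.3 to 84.6 RPKM in controls to 51.7 to 58.8 RPKM under Fe deficiency, against 10830.0 to 12240.0 RPKM in rosettes. The part of the lower green tissue markers in the results for roots was not tested.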

How the data were processed

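The authors deposited a table per organ of normalised values for its 6 libraries, with no unit in the headers. The name of each table carries the label TMM, a method of scaling between libraries. These deposited values were taken as RPKM because, multiplied by exonic length in kilobases, they sum to 1153129 to 1160315 per library. At the same rank these products differ between libraries by a median coefficient of variation of 0.549% (rosettes) and 0.616% (roots) over the 1000 highest ranks, so distributions appear equalised, which creates ties and removes changes common to most genes. Per the submitters' processing notes, TAIR10, bcl2fastq 1.8.4, Trimmomatic 0.35, Bowtie2 2.0.6, edgeR 3.12.1 and limma 3.26.9 were among the resources used. Counting is not given in the sources used here. The deposited tables also hold the authors' log2 fold change and p-value (a Z-test, per the file headers).

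After removal of 4 rows that name no plant locus, limma 3.58.1 (R 4.3.3, eBayes with trend, two-sided) was fitted per organ to log2(RPKM + 0.5) for all genes averaging 1 RPKM or more, with Benjamini-Hochberg adjustment, and tested on simulated data. Fold changes on this scale understate those of low genes. Organs, normalised separately, were compared by the difference of log2 fold changes (Satterthwaite degrees of freedom). All 35 genes, all coumarin genes and the called genes of other lists are named; KFB50 and KFB-CHS were added after their values were seen. Of the set as chosen, 1 gene is not reported here. Genes and lists were chosen with earlier results of these data known. Alternatives were pseudocounts of 0.1 and 1, other filters and variance settings, rescaling, a replicate block, 1 fit of all 12 libraries and leaving out each library.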

Additional observations from a re-analysis of the deposited data

Results flagged for a closer look

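The genes below had a response to Fe deficiency that differed between organs by the test of the difference itself, given as the log2 fold change in rosettes minus that in roots, each with an adjusted p under 0.05. No explanation was tested for any of them. Among the 35 genes the values were -1.05 for PAL1, -1.70 for PAL2, -0.53 for C4H, -1.47 for 4CL1, -1.68 for 4CL2, -0.91 for HCT, -0.68 for C3'H, -0.80 for CSE, 0.93 for F5H and 0.37 for CAD4.

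In the coumarin list they were -0.83 for COSY, -4.92 for CYP82C4, -1.96 for ABCG37 and -3.32 for BGLU42. CYP82C4 and ABCG37 lost this call in 2 and 7 alternatives. F6'H1 was also tested in both organs and was not called by this test (-1.91, adjusted p = 0.115), nor in any of 22 alternatives. In the supply of phenylalanine the called values were -0.50 for DHS1, -0.72 for DHS3, -0.61 for EPSPS and -0.72 for CM1. The Kelch F-box genes gave -1.36 for KFB01 and -1.11 for KFB20, and the glucosyltransferase gene UGT72E1 gave -3.02. CHIL, the chalcone isomerase-like gene, gave 1.35, in the direction of a stronger rise in rosettes.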

How the results depend on the processing

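The 8 genes called higher in roots and the 8 with a lower response in rosettes than in roots stayed within 1.5 times of their count under every alternative run, and no called value changed sign. Of the genes called, 7 of 9 in roots and 6 of 10 organ differences were called in every alternative. The 1 gene called lower in roots, F5H, became 0 with no filter, 2 with array weights, where CAD4 joined (adjusted p = 0.0410), and 3 in 1 fit of all 12 libraries, where CAD4 (0.0251) and UGT78D1 (0.0466) joined. In rosettes the count called higher became 1 in the fit of all 12 libraries (PAL1, 0.0415), and the count called lower was 0 under every alternative run. C3'H lost its root call with no filter (0.0639). Of the organ differences, C4H and F5H lost the call in 5 alternatives each and CAD4 in 6, and UGT78D1 gained one in 6. With no filter MYB12 was tested in both organs and its difference was called (0.81, adjusted p = 0.0364). Its rosette libraries ranged from 0.25 to 1.04 RPKM, near the pseudocount of 0.5. The authors' deposited table marks MYB12 as low in rosettes and gives it a p-value of 0.6 there. The 2 genes with a higher response in rosettes became 1 without a trend in eBayes and 0 to 3 with a library left out, being 0 without root control 2 and 1 without root control 3, rosette control 3 or rosette Fe-deficient 1 or 3.

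Over all genes, 1170 calls in roots became 692 with no filter and 523 to 971 with a library left out. It was under 1170 by more than 1.5 times without control 2 (523), control 3 (708), Fe-deficient 1 (612), Fe-deficient 2 (563) or Fe-deficient 3 (724). The 372 rosette calls became 559 with array weights, 188 with the replicate block and 167 to 330 with a library left out, the low counts being 167, 173 and 199 without controls 1, 2 and 3 and 201 and 197 without Fe-deficient 2 and 3. With the replicate block the 35 genes gave 8 higher and 1 lower in roots and 0 in rosettes, and roots gave 880 calls over all genes. Deviations of same-numbered libraries correlated at -0.00334 to 0.103 in roots and -0.160 to 0.247 in rosettes. Those of differently numbered libraries correlated at -0.0871 to 0.0842 in roots and -0.309 to 0.244 in rosettes. With 3 libraries a group these few values cannot settle whether the replicate numbers pair the samples. Leaving out a library also leaves fewer samples. Depth is unknown, and 3 libraries a group limit what can be called.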

Other observations

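Outside the 35 genes, 2 flavonoid genes were called in rosettes. CHIL (AT5G05270), whose protein is known to assist chalcone synthase, stood at 28.3, 30.7 and 23.2 RPKM in the controls and 70.1, 50.8 and 62.7 RPKM under Fe deficiency in rosettes (log2 fold change 1.14, SE 0.15, limma adjusted p = 0.0193), with every Fe-deficient library above every control. It was the only one called of 11 other flavonol and anthocyanin enzymes in rosettes, none of the 8 tested was called in roots, and its call was lost in 6 alternatives (adjusted p up to 0.102). LBD39 (AT4G37540), a repressor of anthocyanin synthesis in the nitrate response, was lower in both organs. It stood at 55.7, 49.1 and 50.1 RPKM in the controls and 33.4, 36.9 and 37.0 RPKM under Fe deficiency in roots (log2 fold change -0.52, SE 0.073, limma adjusted p = 0.00916) and at 33.0, 29.3 and 27.8 RPKM in the controls and 20.5, 19.5 and 15.9 RPKM under Fe deficiency in rosettes (log2 fold change -0.68, SE 0.11, limma adjusted p = 0.047), where its call was lost in 8 alternatives. It was the only gene called among 8 tested of 11 other flavonoid regulators in each organ. Over all tested genes, 5.87% were called in roots and 1.96% in rosettes, in either direction. The 4 proanthocyanidin genes of the seed coat stayed under 1 RPKM on average and were not tested in either organ.

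In rosettes, control 2 was the highest control and Fe-deficient library 3 the highest Fe-deficient library for 4 of 4 anthocyanin enzymes, 3 of 7 flavonoid and flavonol genes and 1 of 6 regulators, but for 0 of 9 general phenylpropanoid and 0 of 9 monolignol genes. The same order held for 8.51% of all 19006 tested genes. This order was noticed in the values and has no test.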
